A study of Bos taurus with 16 samples.

Results

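The net effect of luteinising hormone (LH) and bone morphogenetic protein 6 (BMP6), given together, was measured against untreated cells in cultured bovine theca interna cells. The comparison took its 8 arrays by their titles, 4 of LH+BMP6 and 4 of control, from 16 Affymetrix bovine GeneChip arrays in all; the others were 4 of BMP6 alone and 4 of LH alone. Cells from adult ovaries were pooled from about 50 follicles of 4 to 6 mm and kept 6 days in serum-free medium, which all 4 groups shared. LH+BMP6 cells received LH at 160 pg/ml and BMP6 at 10 ng/ml for 4 days, from day 3 to day 6, BMP6 cells and LH cells received the 1 factor at the same dose, and control cells received neither. The 4 arrays of a group came from 4 repeats of the experiment on different batches of ovaries, so each value stands for a pool of animals and for primary cells in culture, not for tissue.

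Theca cells form the outer layer of the follicle wall. They make androgen from cholesterol, which neighbouring granulosa cells turn into oestrogen, and they secrete the peptide hormone INSL3. LH acts on them through the receptor LHCGR and cyclic AMP to raise steroid output. BMP6, which is made in the follicle, acts through serine/threonine kinase receptors and SMAD transcription factors, and is known to hold back androgen production by theca cells.

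All levels below are log2 signals of the robust multi-array average (RMA), so a difference of 1 is a 2-fold change, and changes are LH+BMP6 minus control with limma's standard error (SE). A probe set was called when its adjusted p (Benjamini-Hochberg over 24016 probe sets) was under 0.05, and a gene was read from its brightest probe set. Levels of different genes are not compared, since each probe set has its own response. Arrays correlated at r = 0.991 to 0.996 within LH+BMP6, at 0.992 to 0.996 within control and at 0.975 to 0.989 between them. The mean signal of 9 spiked hybridisation controls was low on 3 of the 16 arrays, control replicates 1 and 3 and LH replicate 1, at 8.66 to 8.71, against 9.84 to 10.17 on the other 13. Leaving those arrays out, or taking the low signal as a term in the fit, lowered the number of calls over the whole table, and is given below beside list counts above 3 that moved by over 1.5 times. Smaller list counts often moved too, and rest on few genes. The 3′ minus 5′ difference of GAPDH, a measure of RNA integrity, was 0.140 ± 0.020 in LH+BMP6 and 0.342 ± 0.051 in control (SD, n = 4 each; exact two-sided permutation p = 0.0286, the smallest that 4 against 4 arrays allow, adjusted p = 0.172 over 6 measures). That of actin was 1.72 ± 0.28 in LH+BMP6 and 2.20 ± 0.35 in control (exact p = 0.0857, adjusted p = 0.228), and its part in the results below was tested only as a covariate. For GAPDH the groups did not overlap (0.114 to 0.157 in LH+BMP6, 0.293 to 0.411 in control). The part of the GAPDH difference in the results was not tested.

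LH and BMP6 together changed a large share of the genes measured. Of 24016 probe sets, 4635 were called (19.3%), 2200 higher in LH+BMP6 (9.16%) and 2435 lower (10.1%). Among the 9155 genes with a symbol, 2388 were called (26.1%): 994 rose (10.9%) and 1394 fell (15.2%), and these percentages are the background against which the lists below stand. The rises were larger than the falls, with a median of 0.59 over called rises and −0.42 over called falls. At least 2-fold, 159 genes rose (1.74%) and 116 fell (1.27%), and at least 4-fold, 18 rose and 20 fell. The 4 LH+BMP6 arrays all lay above the 4 control arrays for 1126 genes (12.3%) and all below them for 1697 (18.5%), which included 2152 of the 2388 called genes. Another 101 probe sets rose and 88 fell by at least 2-fold without a gene name in the annotation. Leaving out both arrays numbered 3 took the called probe sets to 2754, and the fit with the low hybridisation signal as a term gave 2774.

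INSL3 and INHA had the largest falls of all named genes, and LHCGR fell less far. INSL3, the peptide hormone of theca and Leydig cells, had 8.55, 9.09, 7.59 and 10.28 in LH+BMP6, against 14.29, 14.18, 13.88 and 13.99 in control. In control, INSL3 was within the 5 brightest probe sets of every array, at the top of the signal range, while in LH+BMP6 it was spread over more than 2 log2 units, with replicate 4 the highest. The change of −5.20 ± 0.55 (adjusted p = 6.5e-06) makes INSL3 at least 36.9-fold lower. INHA, the alpha subunit of inhibin, had 6.44, 6.54, 6.17 and 6.97 in LH+BMP6, against 11.28, 10.52, 10.03 and 10.41 in control, a 16.3-fold difference (−4.03 ± 0.24, adjusted p = 2.3e-08). The groups were far apart on every array for both genes. LHCGR, the receptor for LH itself, had 5.85, 6.26, 6.06 and 6.54 in LH+BMP6, against 8.06, 8.13, 7.85 and 7.50 in control (−1.70 ± 0.19, adjusted p = 9.4e-06), and so was 3.26-fold lower. Against control, LHCGR changed by −2.06 in BMP6 alone, and by 0.23 in LH alone, which limma did not call (adjusted p = 0.93).

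INHBA, the subunit that forms activin and joins INHA in inhibin, moved the other way, with 9.36, 9.33, 9.05 and 9.44 in LH+BMP6, against 8.57, 8.34, 9.08 and 8.89 in control (0.58 ± 0.15, adjusted p = 0.0097). The groups touched, since control replicate 3 lay just above LH+BMP6 replicate 3, and the call was lost when both arrays numbered 1 were left out (0.51, adjusted p = 0.069). FST, the activin-binding protein follistatin, averaged 10.85 in LH+BMP6 and 10.22 in control, and missed the threshold (0.62 ± 0.22, adjusted p = 0.056). It passed under 8 of the alternatives, among them the fit of only the 8 arrays compared (adjusted p = 0.03) and the one without LH+BMP6 replicate 4 (0.80, adjusted p = 0.018). Of the 16 measured theca hormones and hormone receptors, 2 rose and 5 fell, with a median change of 0.01 beside −0.02 over all genes. Arrays of whole wells were read, so fewer theca cells and less RNA in each theca cell cannot be told apart.

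The enzymes that turn cholesterol into androgen fell with them. CYP17A1, the theca enzyme that commits steroids to androgen, had 4.46, 4.61, 4.78 and 4.32 in LH+BMP6, against 8.56, 7.03, 6.59 and 7.35 in control (−2.84 ± 0.52, adjusted p = 0.00099). Its LH+BMP6 signals were close to the lower quartile of those arrays (4.33 to 4.41), so the 7.16-fold difference is a lower bound. HSD3B1, which makes progesterone and androstenedione from their precursors, had 9.53, 8.74, 9.13 and 9.26 in LH+BMP6, against 11.84, 11.74, 11.37 and 11.52 in control (−2.45 ± 0.25, adjusted p = 5.1e-06). CYP11A1, which cleaves the side chain of cholesterol as the first step, had 9.15, 9.12, 9.03 and 9.27 in LH+BMP6, against 11.17, 11.27, 11.25 and 11.32 in control (−2.11 ± 0.16, adjusted p = 2.7e-07). The arrays of each group lay within 0.3 of each other for CYP11A1, the tightest of the 3 enzymes.

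STAR, which carries cholesterol into the mitochondrion, was the least even. It had 5.03, 6.10, 7.81 and 8.01 in LH+BMP6, against 8.52, 8.36, 8.21 and 8.72 in control. All 4 LH+BMP6 arrays lay below all 4 control arrays, but replicates 3 and 4 by little, and the change of −1.72 ± 0.68 missed the threshold (adjusted p = 0.09). It passed in a fit of only the 8 arrays compared (adjusted p = 0.043) and without LH+BMP6 replicate 4 (−2.14, adjusted p = 0.045). SCARB1, the receptor that takes up cholesterol from lipoproteins, had 10.03, 10.25, 10.00 and 10.05 in LH+BMP6, against 10.48, 10.65, 10.77 and 10.84 in control, a small fall with no overlap (−0.60 ± 0.15, adjusted p = 0.0097). That call was lost with both arrays numbered 3 left out (−0.55, adjusted p = 0.074), with both numbered 4 left out (−0.54, adjusted p = 0.077) and with the low hybridisation signal as a term (−0.46, adjusted p = 0.079). TSPO, which sits in the outer membrane of mitochondria, rose, with 10.81, 11.11, 10.79 and 10.75 in LH+BMP6, against 9.64, 10.14, 10.19 and 9.84 in control (0.91 ± 0.11, adjusted p = 3.9e-05). In all, 1 of 13 measured steroidogenic enzymes and partners rose and 5 fell, with a median of −0.37, and 3 fell with the low hybridisation signal as a term.

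**Figure D1:**
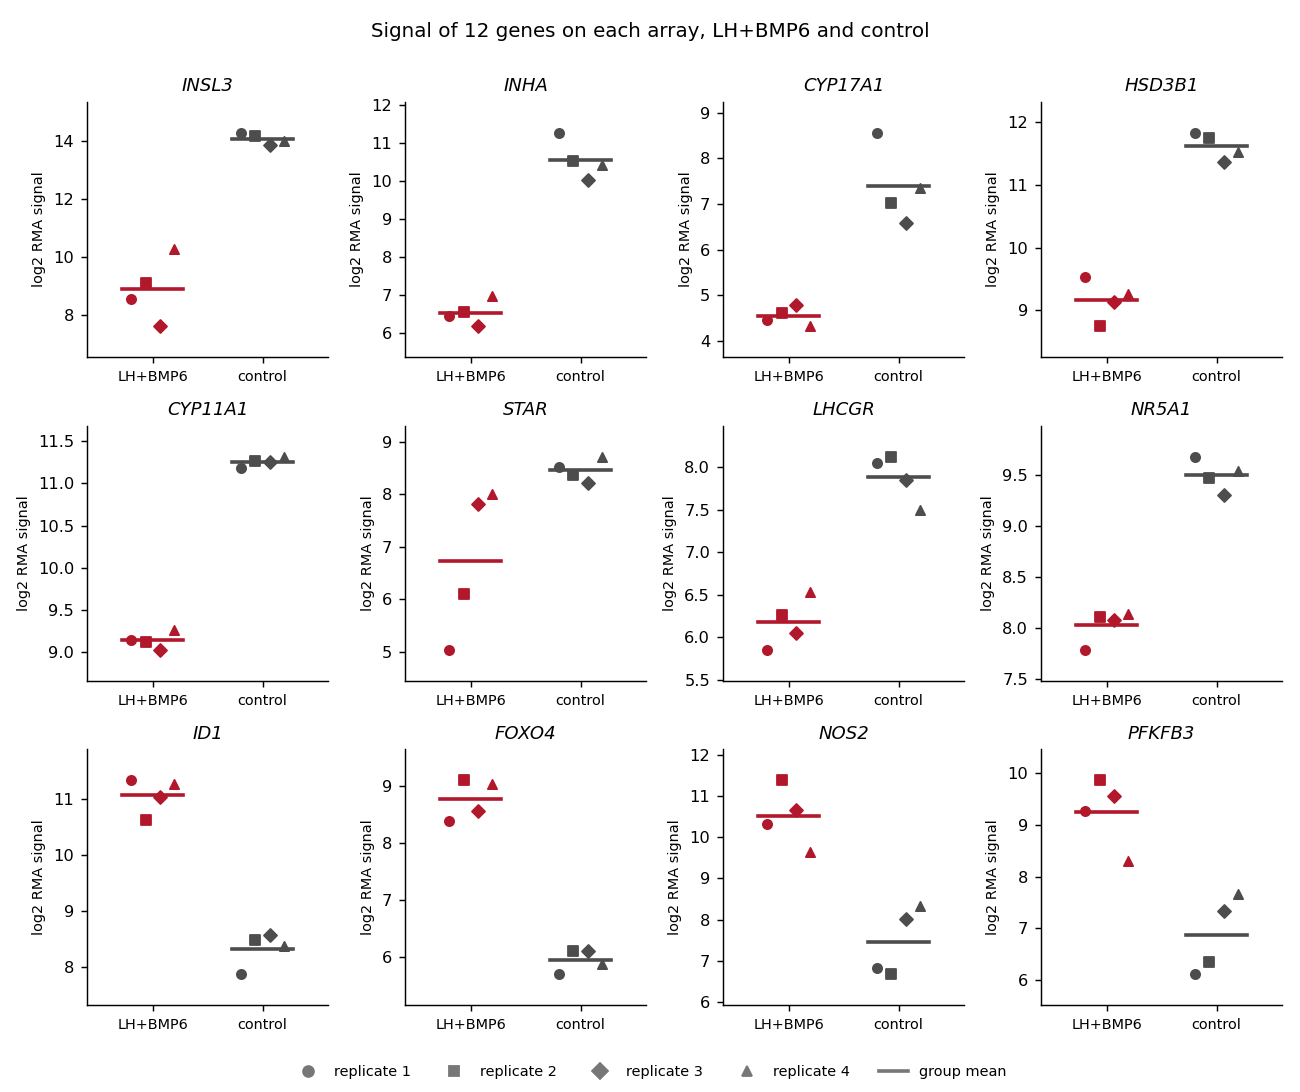
Log2 RMA signal of 12 genes on each array, LH+BMP6 at the left and control at the right of each panel; each symbol is 1 array and the line is the group mean, with a y axis for each gene. INSL3 lay between 7.59 and 10.28 in LH+BMP6 and between 13.88 and 14.29 in control, STAR was spread from 5.03 to 8.01 in LH+BMP6, and ID1, FOXO4, NOS2 and PFKFB3 were higher on all 4 LH+BMP6 arrays.

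Transcription factors of the steroidogenic programme were split. NR5A1, steroidogenic factor 1, which drives most genes of steroid synthesis, had 7.79, 8.11, 8.08 and 8.14 in LH+BMP6, against 9.68, 9.47, 9.30 and 9.53 in control (−1.47 ± 0.10, adjusted p = 5.1e-08). NR0B1, the orphan receptor DAX1, which represses NR5A1 targets, had 4.68, 4.07, 4.34 and 4.39 in LH+BMP6, against 5.66, 5.66, 5.07 and 5.46 in control (−1.09 ± 0.20, adjusted p = 0.00093). The LH+BMP6 signals of NR0B1 were close to the lower quartile of those arrays (4.33 to 4.41), and 1 of its 2 probe sets was called. By the brightest probe sets, an activator and a repressor of the same targets were thus both lower. CEBPB, a factor induced by cyclic AMP and cytokines, rose (0.69 ± 0.16, adjusted p = 0.0065), as did GATA6, which acts on several steroidogenic promoters (0.36 ± 0.09, adjusted p = 0.0078), although the call of GATA6 was lost with both arrays numbered 3 left out (0.37, adjusted p = 0.057). GATA4 averaged 9.62 in LH+BMP6 and 9.42 in control and was not called (adjusted p = 0.2). Of 9 measured members, 2 rose and 2 fell.

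Genes of cholesterol synthesis, which supplies the substrate of steroids, were lower as a group, with no measured member higher. The 16 measured were enzymes of the pathway together with SREBF2 and INSIG1, regulators of sterol synthesis named after their values were seen: 10 of 16 fell and the median was −0.74, beside −0.02 over all genes. TM7SF2, a sterol reductase late in the pathway, had 5.97, 6.14, 5.88 and 5.82 in LH+BMP6, against 7.24, 7.57, 6.92 and 7.38 in control (−1.32 ± 0.38, adjusted p = 0.02). LSS, which closes the sterol rings, had 8.44, 7.86, 7.88 and 8.29 in LH+BMP6, against 9.21, 9.29, 8.98 and 8.95 in control (−0.99 ± 0.20, adjusted p = 0.002), and kept its call under all 28 alternatives. SQLE, the squalene epoxidase, fell by 0.92 ± 0.29 (adjusted p = 0.035), CYP51A1, the lanosterol demethylase, by 0.91 ± 0.28 (adjusted p = 0.028), and DHCR7, which makes cholesterol in the last step of a main route, by 0.87 ± 0.28 (adjusted p = 0.034). For 12 of the 16 all LH+BMP6 arrays lay below all control arrays, as they did for 18.5% of all genes. These calls were near the threshold: with the low hybridisation signal as a term only 1 of 16 was called and the median was −0.55, while leaving out the 3 low arrays gave 11 of 16 and −0.80. Leaving out control replicate 2 alone ended the calls of TM7SF2 (−1.23, adjusted p = 0.058), SQLE (−0.86, adjusted p = 0.087), CYP51A1 (−0.82, adjusted p = 0.081) and DHCR7 (−0.78, adjusted p = 0.095). The calls of SQLE, CYP51A1 and DHCR7 were also lost without control replicate 1 or any 1 of LH+BMP6 replicates 2, 3 and 4 (adjusted p of 0.053 to 0.098), and those of SQLE and DHCR7 without control replicate 3 (adjusted p = 0.065 and 0.061).

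The direct targets of BMP signalling rose. ID1, an inhibitor of basic helix-loop-helix factors that SMADs switch on, had 11.32, 10.62, 11.03 and 11.26 in LH+BMP6, against 7.87, 8.48, 8.57 and 8.37 in control, a 6.66-fold rise (2.73 ± 0.20, adjusted p = 1.5e-07). ID3 had 9.19, 8.88, 8.99 and 9.02 in LH+BMP6, against 7.10, 7.70, 7.57 and 7.30 in control (1.60 ± 0.18, adjusted p = 1.7e-05). ID2 rose by 1.53 ± 0.18 (adjusted p = 2.1e-05), BAMBI, a decoy receptor that damps the pathway, by 1.56 ± 0.13 (adjusted p = 7.1e-07), and TMEM100, a membrane protein induced by BMPs in endothelium, by 1.61 ± 0.29 (adjusted p = 0.00085). All 5 were separated from control on every array, as were 2152 of the 2388 called genes. For ID1 and for TMEM100 only 1 of 2 probe sets was called. Of 7 measured targets, 5 rose and none fell, none of the 7 falling at an unadjusted p under 0.05 either, and the median was 1.56. The count was also 5 of 7 without the arrays of low hybridisation signal.

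The receptors, ligands and SMADs of the BMP and activin pathways moved little, with 3 of 25 higher, 2 lower and a median of 0.08. BMPR1B, a type I BMP receptor, had 5.78, 5.36, 5.44 and 5.73 in LH+BMP6, against 6.10, 6.19, 6.03 and 6.05 in control (−0.51 ± 0.11, adjusted p = 0.0031). SMAD3, which carries activin and TGF-beta signals, had 6.53, 6.78, 6.66 and 6.73 in LH+BMP6, against 7.26, 7.08, 7.20 and 7.02 in control (−0.47 ± 0.10, adjusted p = 0.0027). ENG, the co-receptor endoglin, averaged 7.14 in LH+BMP6 and 6.61 in control (0.53 ± 0.16, adjusted p = 0.025). These calls were weak: with the mean of a gene's probe sets in place of the brightest, BMPR1B (−0.20, adjusted p = 0.092) and SMAD3 (−0.16, adjusted p = 0.24) were not called. Leaving out LH+BMP6 replicate 1 (0.44, adjusted p = 0.079), LH+BMP6 replicate 4 (0.51, adjusted p = 0.056) or control replicate 2 (0.43, adjusted p = 0.089) ended that of ENG. Without the arrays of low hybridisation signal, 0 of the 25 were higher and 1 was lower.

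The largest rises were not of BMP targets alone. NOS2, the inducible nitric oxide synthase, had 10.33, 11.37, 10.66 and 9.64 in LH+BMP6, against 6.82, 6.68, 8.01 and 8.34 in control, an 8.23-fold rise (3.04 ± 0.41, adjusted p = 7.0e-05). FOXO4, a forkhead transcription factor, had 8.39, 9.09, 8.55 and 9.02 in LH+BMP6, against 5.69, 6.10, 6.10 and 5.86 in control, a 7.08-fold rise (2.82 ± 0.17, adjusted p = 2.2e-08). UPK1B, a uroplakin of the tetraspanin family, had 8.50, 7.36, 7.81 and 7.78 in LH+BMP6, against 5.06, 5.25, 5.39 and 5.49 in control (2.57 ± 0.22, adjusted p = 8.2e-07). Size and evenness did not go together here. FOXO4 differed by 2.45 to 3.16 between arrays of the same replicate number, and NOS2 by 1.30 to 4.69. The other genes of the 15 largest rises, beside ID1, were PTGS2, PFKFB3, IGSF10, BOLA-DYA, SLIT3, FBXO32, SLC16A3, GPNMB, SELP and the unnamed loci LOC508098 and LOC404105, with changes of 2.13 to 2.73. IGSF10 had 6.14, 5.94, 6.63 and 6.97 in LH+BMP6, against 3.55, 4.14, 4.37 and 4.27 in control, where it was near the lower quartile of the arrays, so its rise was at least 5.06-fold.

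The 15 largest falls held, beside INSL3, INHA, CYP17A1 and HSD3B1, genes of other roles. TNNI3, the cardiac form of troponin I, had 6.997, 6.49, 6.23 and 6.44 in LH+BMP6, against 11.18, 10.29, 10.05 and 10.68 in control, a 16.1-fold fall (−4.01 ± 0.28, adjusted p = 6.7e-08). NMB, the peptide neuromedin B, had 7.84, 7.82, 7.69 and 8.19 in LH+BMP6, against 12.18, 11.29, 9.71 and 10.58 in control, an 8.31-fold fall (−3.06 ± 0.37, adjusted p = 2.6e-05). COL21A1, a fibril-associated collagen chain, had 8.78, 8.49, 8.62 and 8.85 in LH+BMP6, against 11.44, 11.32, 11.25 and 11.44 in control (−2.68 ± 0.08), with an adjusted p of 4.7e-13. NMB spread over more than 2 log2 units in control, and COL21A1 over 0.2. STC1, the glycoprotein hormone stanniocalcin 1, had 8.94, 8.57, 8.35 and 8.75 in LH+BMP6, against 11.86, 11.81, 11.14 and 11.05 in control (−2.82 ± 0.29, adjusted p = 5.8e-06). EMID1, a secreted protein with an EMI domain, fell by 2.83 ± 0.18, CELSR2, an adhesion receptor of the cadherin family, by 2.54 ± 0.23, and ERP27, a chaperone-like protein of the endoplasmic reticulum, by 2.42 ± 0.15. ATP4B, the beta subunit of the gastric proton pump, ended below the lower quartile of the LH+BMP6 arrays, at 3.62 to 3.96 there and 5.74 to 7.53 in control, so its fall was at least 6.01-fold. The loci LOC508666 and LOC783399 fell by 3.26 ± 0.30 and 3.21 ± 0.33.

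**Figure D2:**
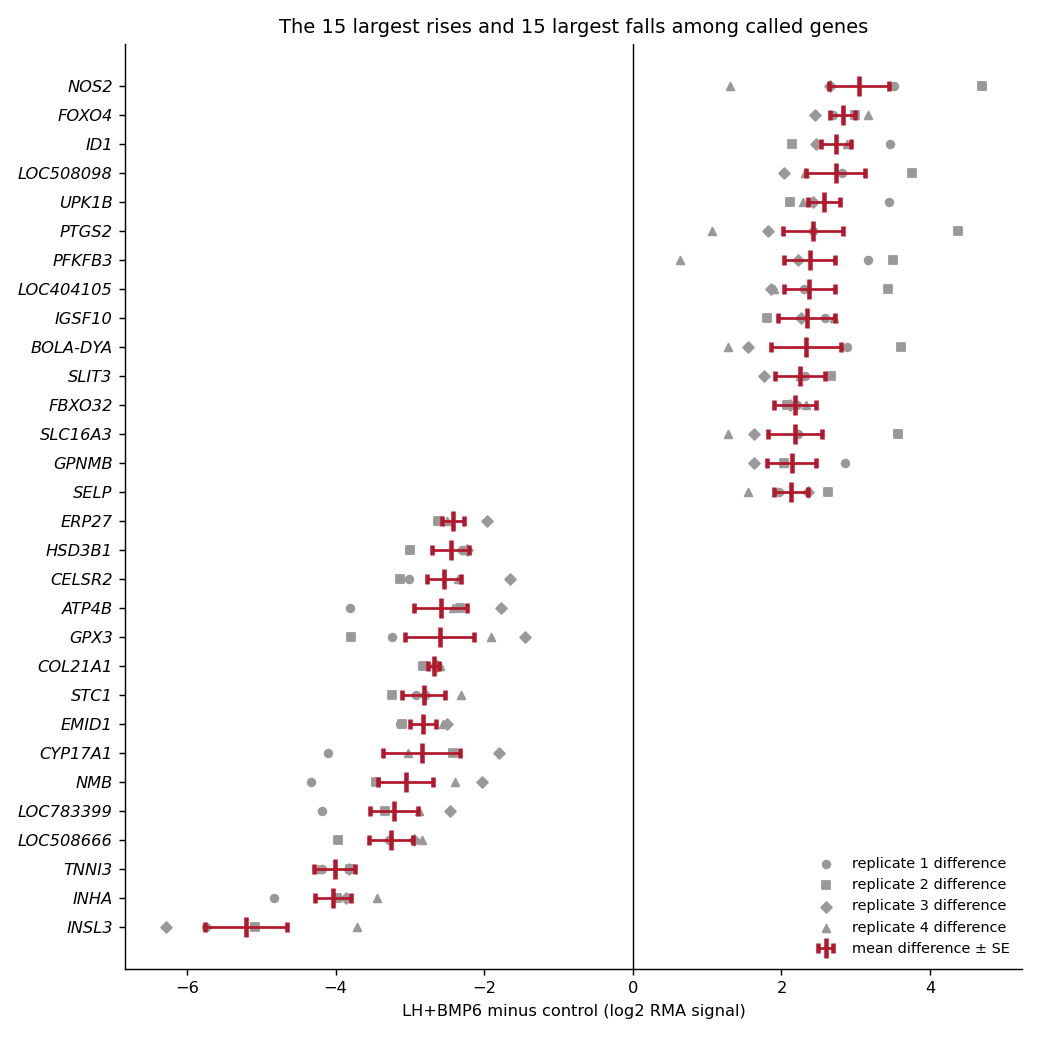
Change in log2 RMA signal, LH+BMP6 minus control, for the 15 called genes with the largest rise and the 15 with the largest fall; the red bar is the mean difference with its SE, and each grey symbol is the difference between the 2 arrays of a replicate number. The genes were chosen to have 1 sign in all 4 replicate numbers, so each symbol lies on the side of its mean by that choice, and PFKFB3 had the smallest single difference, 0.63 in replicate 4.

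Chemokines, cytokines and inflammatory enzymes rose as a group, 19 of 25 with a median of 1.12, beside 10.9% of all genes higher and a median of −0.02. None fell in the limma test, and 1 was lower at an unadjusted p under 0.05. PTGS2, the inducible cyclooxygenase of prostaglandin synthesis, had 9.37, 10.71, 9.83 and 9.19 in LH+BMP6, against 6.95, 6.33, 8.01 and 8.12 in control (2.42 ± 0.41, adjusted p = 0.00051). PTGES, which acts after PTGS2 to make prostaglandin E, had 6.35, 7.97, 7.26 and 6.80 in LH+BMP6, against 4.94, 5.47, 5.60 and 5.68 in control (1.67 ± 0.31, adjusted p = 0.00099). IL6, a cytokine, had 9.49, 11.12, 9.97 and 9.28 in LH+BMP6, against 7.15, 7.81, 8.59 and 8.44 in control (1.96 ± 0.39, adjusted p = 0.002). The order of the arrays was alike for these genes: LH+BMP6 replicate 2 was the highest of its group, and control replicates 3 and 4 were the highest of theirs. CCL20, a chemokine for lymphocytes and dendritic cells, rose by 2.09 ± 0.35 (adjusted p = 0.00045). IL1B and CXCL8, named after their values were seen, rose by 1.48 ± 0.21 (adjusted p = 0.00013) and 1.23 ± 0.18 (adjusted p = 0.00018). PTX3, a pentraxin of the expanding cumulus and of inflamed tissue, also named after its values were seen, stood apart with 9.02, 9.12, 9.34 and 9.18 in LH+BMP6, against 11.08, 10.01, 9.66 and 9.86 in control. Its change of −0.99 ± 0.42 was not called (adjusted p = 0.11), but passed under 4 of the alternatives, among them the fit of only the 8 arrays compared (adjusted p = 0.016). The median of the list by replicate number was 0.98, 1.37, 0.90 and 0.39, and 15 of 25 rose without the arrays of low hybridisation signal.

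Glycolytic and hypoxia-responsive genes rose with them, 20 of 27 with a median of 0.68, and 1 fell. PFKFB3, whose product sets the pace of glycolysis, had 9.27, 9.86, 9.55 and 8.30 in LH+BMP6, against 6.11, 6.36, 7.33 and 7.67 in control (2.38 ± 0.34, adjusted p = 0.00014). SLC2A3, a glucose transporter of high affinity, had 6.21, 7.53, 6.56 and 5.99 in LH+BMP6, against 4.35, 4.52, 5.05 and 5.09 in control (1.82 ± 0.32, adjusted p = 0.00076). SLC2A1 and HK1, named after their values were seen, import glucose and trap it as the phosphate; they rose by 1.09 ± 0.22 and 1.08 ± 0.11. LDHA, which makes lactate, had 12.30, 13.004, 12.44 and 12.20 in LH+BMP6, against 10.30, 10.75, 11.48 and 11.19 in control (1.55 ± 0.23, adjusted p = 0.00019), although another of the LDHA probe sets was called lower. SLC16A3, which carries lactate out of the cell, had 7.89, 9.47, 8.26 and 7.92 in LH+BMP6, against 5.66, 5.89, 6.63 and 6.63 in control (2.18 ± 0.36, adjusted p = 0.00047). By the brightest probe sets, steps along the path from glucose uptake to lactate export were thus higher, although only 1 of 3 PFKFB3 probe sets was called. VEGFA, the angiogenic growth factor, rose by 1.60 ± 0.30 (adjusted p = 0.0011), and BNIP3, a mitophagy receptor induced by low oxygen, by 1.74 ± 0.26 (adjusted p = 0.00017). The member that fell was PFKM, the muscle form of phosphofructokinase, named after its values were seen, with 6.79, 6.54, 6.83 and 6.82 in LH+BMP6, against 7.84, 7.81, 7.70 and 7.78 in control (−1.04 ± 0.16, adjusted p = 0.0002). The array order seen for the cytokines held for PFKFB3, SLC2A3 and SLC16A3 too, with LH+BMP6 replicate 2 the highest. Without the arrays of low hybridisation signal 19 of 27 rose and 1 fell.

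Of 12 genes that respond to cyclic AMP, 6 rose and 2 fell, with a median of 0.52, which was 0.24 with the mean of a gene's probe sets and 0.81 with dim probe sets left out. Without the arrays of low hybridisation signal 6 rose and 1 fell. NR4A1, an orphan nuclear receptor induced early by LH in several gonadal cells, had 7.36, 8.43, 7.89 and 7.78 in LH+BMP6, against 6.25, 6.08, 6.46 and 6.12 in control (1.63 ± 0.19, adjusted p = 1.5e-05). NR4A2, its relative, had 7.79, 8.08, 7.92 and 7.28 in LH+BMP6, against 6.43, 6.97, 6.59 and 6.71 in control (1.10 ± 0.18, adjusted p = 0.00038). CREM, a modulator of cyclic AMP responses, rose by 1.07 ± 0.19 (adjusted p = 0.00073) and FOS, an AP-1 subunit, by 0.92 ± 0.17 (adjusted p = 0.0012). The arrays of the groups did not overlap for any of these 4, as for 2152 of the 2388 called genes. Only 1 of 6 CREM probe sets and 1 of 4 NR4A2 probe sets were called higher, and none lower. SCG2, the granule protein secretogranin II, had 11.89, 11.59, 11.62 and 11.96 in LH+BMP6, against 10.53, 10.77, 10.51 and 10.91 in control (1.08 ± 0.14, adjusted p = 4.6e-05). TF, the iron carrier transferrin, went the other way, with 6.29, 6.39, 6.07 and 6.22 in LH+BMP6, against 6.54, 6.88, 6.86 and 7.12 in control (−0.61 ± 0.17, adjusted p = 0.019), a call lost without LH+BMP6 replicate 3 (−0.55, adjusted p = 0.062) or control replicate 4 (−0.52, adjusted p = 0.064). Against control, NR4A1, NR4A2, CREM and FOS changed by 1.16, 0.97, 1.02 and 0.78 in BMP6 alone. They changed by 0.05, −0.11, 0.13 and −0.04 in LH alone. SCG2 and TF changed by 0.74 and −0.74 in BMP6 alone, and rose by 1.17 and 1.13 in LH alone. The median of the list was 0.41 in BMP6 and 0.04 in LH. The G proteins, cyclases, kinases and phosphodiesterases of the cyclic AMP pathway gave few calls, with 1 of 15 higher, 1 lower and a median of 0.09, which was 0.13 without the arrays of low hybridisation signal.

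Wnt pathway genes rose in part, 7 of 19 with a median of 0.28 and none lower in the limma test, 1 being lower at an unadjusted p under 0.05. ROR2, a receptor for non-canonical Wnt ligands, had 8.14, 7.82, 8.22 and 8.46 in LH+BMP6, against 5.52, 5.99, 6.49 and 6.42 in control (2.05 ± 0.19, adjusted p = 2.0e-06). RSPO3, a secreted amplifier of Wnt signals, had 8.42, 7.95, 8.35 and 7.73 in LH+BMP6, against 5.82, 5.92, 6.37 and 6.31 in control (2.01 ± 0.17, adjusted p = 8.2e-07). The members that rose included both amplifiers and inhibitors of the pathway. SFRP2, a secreted Wnt antagonist, rose by 1.52 ± 0.31 (adjusted p = 0.0025), DKK3, of the Dickkopf family, by 1.06 ± 0.14 (adjusted p = 4.9e-05), and FZD1, a Wnt receptor, by 0.89 ± 0.17 (adjusted p = 0.0015).

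Among matrix proteases and their inhibitors 12 of 22 rose and none fell, nor at an unadjusted p under 0.05, with a median of 0.59. MMP1, interstitial collagenase, had 6.77, 7.49, 6.70 and 6.24 in LH+BMP6, against 4.63, 4.56, 5.09 and 5.14 in control (1.95 ± 0.23, adjusted p = 2.1e-05). ADAMTS1, a versicanase of the ovulating follicle, had 10.26, 10.51, 10.58 and 10.17 in LH+BMP6, against 8.17, 9.22, 8.77 and 8.72 in control (1.66 ± 0.18, adjusted p = 1.1e-05), and its substrate VCAN, versican, rose by 1.48 ± 0.25 (adjusted p = 0.00052). PLAT, tissue plasminogen activator, had 12.28, 12.72, 12.61 and 12.27 in LH+BMP6, against 10.27, 10.62, 11.32 and 11.32 in control (1.59 ± 0.21, adjusted p = 5.7e-05). ADAMTS4, another proteoglycan-cleaving protease, rose by 1.58 ± 0.26 and SERPINF1, a secreted serpin that blocks angiogenesis, by 1.55 ± 0.27. The count was also 12 of 22 with the low hybridisation signal as a term and with those arrays left out.

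Of 23 collagens and basement membrane genes 1 rose and 4 fell, with a median of 0.05 that was −0.04 without the arrays of low hybridisation signal and −0.07 with that signal as a term. Beside COL21A1, COL6A1, of microfibrillar type VI collagen, had 10.64, 10.90, 10.97 and 11.40 in LH+BMP6, against 12.15, 12.30, 12.08 and 12.16 in control (−1.19 ± 0.15, adjusted p = 3.3e-05). NID2, the basement membrane linker nidogen 2, had 11.14, 11.08, 11.20 and 11.15 in LH+BMP6, against 11.95, 12.01, 11.77 and 11.87 in control (−0.76 ± 0.07, adjusted p = 1.8e-06). FN1, fibronectin, was the member that rose (0.64 ± 0.17, adjusted p = 0.012), and was not called with the low hybridisation signal as a term (0.44, adjusted p = 0.098). Proteoglycans and matrix glycoproteins had 9 of 25 higher and 3 lower, with a median of 0.17, and 6 higher and 2 lower with the low hybridisation signal as a term. THBS2, thrombospondin 2, rose by 1.47 ± 0.21 (adjusted p = 0.00015), and FBLN5, fibulin 5 of elastic fibres, fell by 1.31 ± 0.27 (adjusted p = 0.0022). Of 15 contractile genes, 2 rose and 1 fell. The fall was that of TNNI3, and DES, the muscle filament desmin, had 7.34, 7.13, 7.65 and 7.31 in LH+BMP6, against 6.85, 6.38, 6.69 and 6.81 in control (0.68 ± 0.15, adjusted p = 0.0047). BMPs were named for bone induction, but of 10 measured osteogenic genes only ALPL, bone-type alkaline phosphatase, was called, with 8.28, 8.66, 8.43 and 8.15 in LH+BMP6, against 6.85, 6.99, 7.60 and 7.71 in control (1.09 ± 0.23, adjusted p = 0.0029). At an unadjusted p under 0.05, 2 of the 10 were higher and 1 was lower.

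Of 13 measured retinoid genes, 4 rose and 2 fell, and 2 rose and 2 fell with the low hybridisation signal as a term. ALDH1A1, which makes retinoic acid, had 11.28, 11.02, 10.75 and 10.77 in LH+BMP6, against 12.79, 12.77, 12.04 and 12.26 in control (−1.51 ± 0.19, adjusted p = 3.8e-05), and DHRS3, which returns retinal to retinol, had 4.91, 5.07, 5.20 and 5.37 in LH+BMP6, against 7.55, 6.56, 5.93 and 6.55 in control (−1.51 ± 0.26, adjusted p = 0.00065). RDH10, which oxidises retinol, had 8.45, 9.19, 8.89 and 8.66 in LH+BMP6, against 6.93, 7.15, 7.71 and 7.79 in control (1.40 ± 0.23, adjusted p = 0.00041), and RBP4, the retinol carrier, rose by 1.16 ± 0.18 (adjusted p = 0.00025). The LH+BMP6 and control arrays did not overlap for any of these 4 genes, as for 2152 of the 2388 called genes.

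Of 24 antioxidant enzymes 5 rose and 8 fell, with a median of −0.20. Without the arrays of low hybridisation signal 2 rose and 7 fell, and with that signal as a term 2 rose and 5 fell. GPX3, the secreted glutathione peroxidase, had 5.19, 5.02, 4.52 and 4.91 in LH+BMP6, against 8.43, 8.82, 5.97 and 6.82 in control (−2.60 ± 0.46, adjusted p = 0.00083), with control replicates 3 and 4 well below replicates 1 and 2. PRDX3, the mitochondrial peroxiredoxin, had 9.87, 9.74, 9.90 and 9.85 in LH+BMP6, against 10.82, 10.71, 10.68 and 10.69 in control (−0.89 ± 0.09, adjusted p = 3.5e-06). GSTA2, a glutathione transferase abundant in steroid-making cells, fell by 0.73 ± 0.10 (adjusted p = 6.9e-05). HMOX1, the inducible haem oxygenase, rose, with 8.60, 8.48, 8.62 and 8.73 in LH+BMP6, against 7.68, 7.67, 7.87 and 7.82 in control (0.85 ± 0.09, adjusted p = 6.2e-06).

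Among 27 genes of fatty acid metabolism and lipid storage 2 rose and 4 fell, with a median of 0.03. FASN, fatty acid synthase, had 8.78, 8.73, 8.84 and 8.87 in LH+BMP6, against 9.82, 9.71, 9.48 and 9.69 in control (−0.87 ± 0.13, adjusted p = 0.0002), and ACSL3, which activates fatty acids, fell by 0.70 ± 0.14 (adjusted p = 0.0018). LPL, lipoprotein lipase, which frees fatty acids outside the cell, had 11.23, 11.15, 11.12 and 11.11 in LH+BMP6, against 9.17, 9.53, 10.20 and 10.17 in control (1.38 ± 0.17, adjusted p = 3.6e-05), and FABP5, a fatty acid carrier, rose by 0.79 ± 0.13 (adjusted p = 0.00039).

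Of 14 insulin and IGF genes, 3 rose and 3 fell, among them STC1 and IGFBP4, an IGF-binding protein cleaved in dominant follicles, which had 9.93, 10.62, 10.33 and 10.48 in LH+BMP6, against 11.34, 11.07, 11.18 and 11.28 in control (−0.88 ± 0.14, adjusted p = 0.00025). Of 18 neuropeptide and granule genes, 2 rose and 3 fell, NMB among the falls and SCG2 among the rises. Of 16 interferon-stimulated genes, 2 fell and none rose, nor at an unadjusted p under 0.05. The larger fall was that of IFI16, a sensor of DNA, with 7.92, 8.20, 8.09 and 7.90 in LH+BMP6, against 10.38, 9.62, 9.40 and 9.43 in control (−1.68 ± 0.20, adjusted p = 2.4e-05). Cell cycle genes gave 1 rise and 2 falls of 29, with a median of 0.03 that was 0.40, −0.09, −0.17 and 0.01 by replicate number. In the unfolded protein response, limma called 0 of 14, with 1 higher and none lower at an unadjusted p under 0.05.

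**Figure D3:**
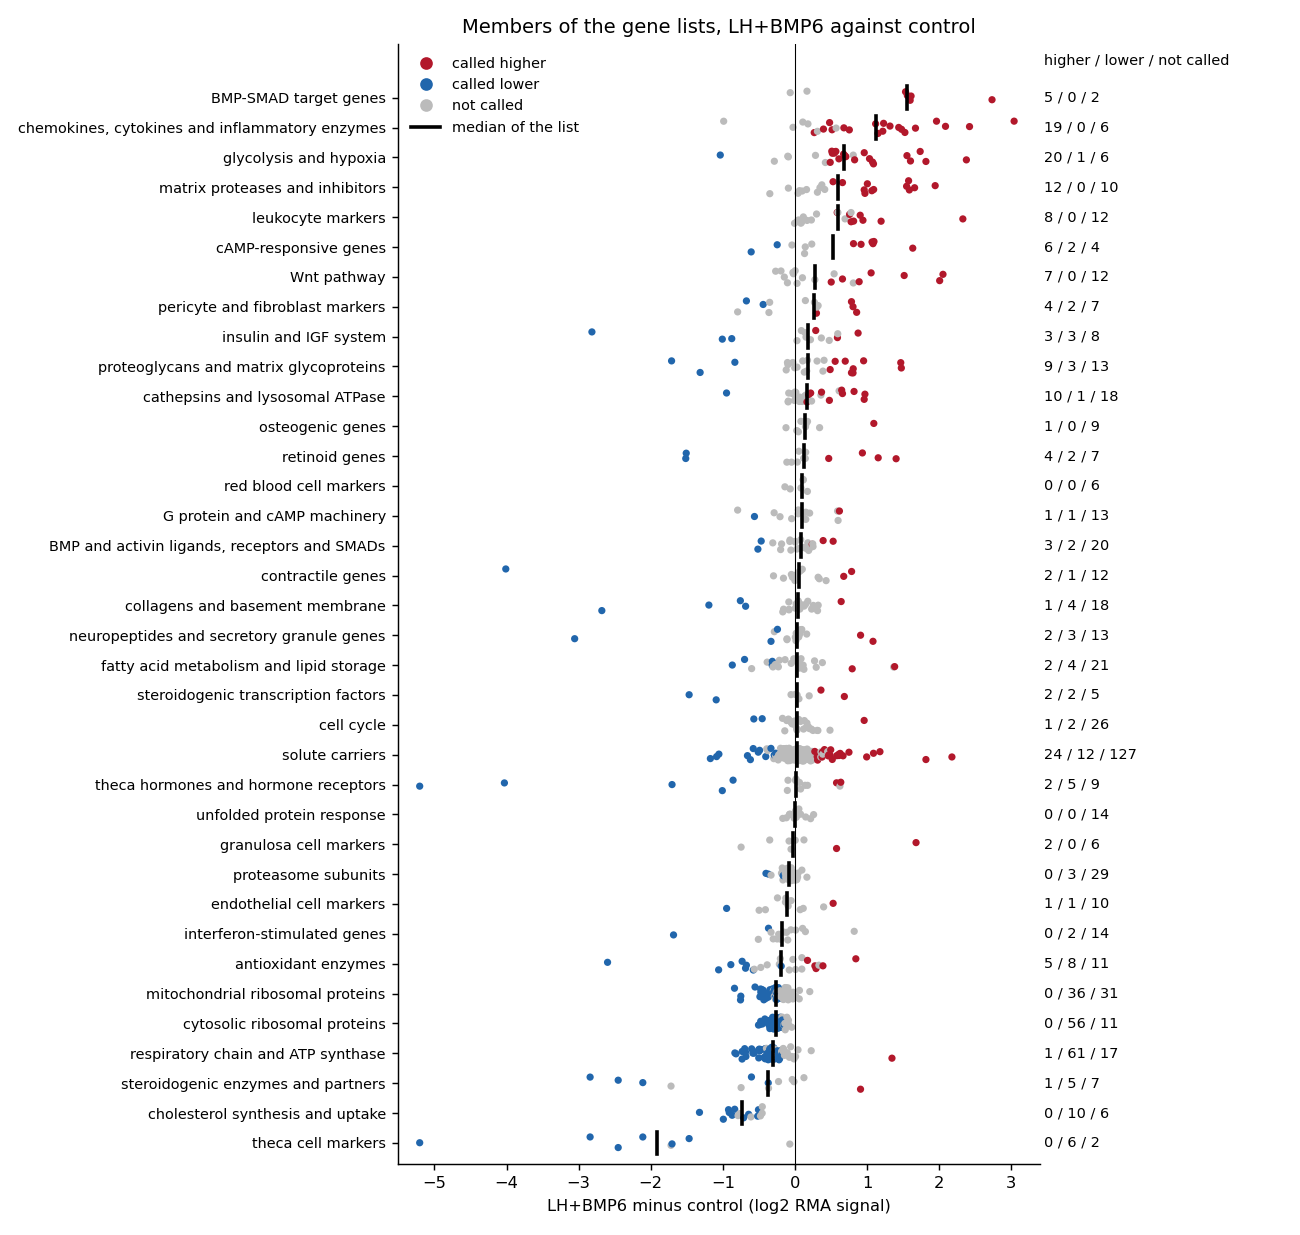
Change in log2 RMA signal, LH+BMP6 minus control, of each measured member of the gene lists and families; red and blue points are members called higher and lower, grey points were not called, the black bar is the median of the list, and the counts are at the right. Medians run from −1.91 for theca cell markers to 1.56 for BMP-SMAD targets, and most lists hold members on both sides of 0.

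Markers of other cells in the dish were read beside these results. Of 8 measured theca cell markers, 6 fell and none rose, nor at an unadjusted p under 0.05, and their mean level was 6.73 to 7.43 on the LH+BMP6 arrays and 8.997 to 9.47 on the control arrays. These are genes of the steroid lists above, so they are not a separate measure of cell number. Of 8 granulosa markers, 2 rose, INHBA and CDH2, an adhesion molecule of granulosa cells and fibroblasts, which had 6.67, 5.87, 6.86 and 6.00 in LH+BMP6, against 4.06, 4.71, 4.84 and 5.08 in control (1.68 ± 0.27, adjusted p = 0.0003). The defining granulosa genes were dim in both groups: FSHR, the FSH receptor, had 3.27, 3.55, 3.44 and 3.41 in LH+BMP6, against 3.50, 3.52, 3.26 and 3.72 in control, under the lower quartile of every array, and CYP19A1, aromatase, averaged 4.62 in LH+BMP6 and 4.49 in control, neither being called. The mean over the granulosa list was 5.14 to 5.22 in LH+BMP6 and 4.92 to 5.17 in control. Its changes were positive for 4 members and negative for 4, with a median of −0.02. None fell in the limma test, but 2 were lower at an unadjusted p under 0.05.

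Of 20 leukocyte markers, 8 rose and none fell, nor at an unadjusted p under 0.05, with a median of 0.59 and a mean level of 7.76 to 8.01 in LH+BMP6 and 7.12 to 7.47 in control. BOLA-DYA, a class II histocompatibility chain, had 8.87, 8.35, 8.48 and 8.28 in LH+BMP6, against 5.99, 4.73, 6.93 and 6.997 in control (2.33 ± 0.48, adjusted p = 0.0023). CD14, the monocyte receptor for endotoxin, had 6.82, 7.52, 7.34 and 7.24 in LH+BMP6, against 5.59, 5.94, 6.45 and 6.17 in control (1.20 ± 0.24, adjusted p = 0.0019). CD2, of T cells, had 8.44, 8.87, 8.59 and 8.04 in LH+BMP6, against 7.70, 7.69, 7.66 and 7.63 in control (0.81 ± 0.25, adjusted p = 0.031), and LCP1, the leukocyte actin-bundling protein, rose by 0.91 ± 0.26 (adjusted p = 0.021). The B cell genes CD79A and MS4A1 averaged between 3.76 and 4.22 in both groups, and PTPRC, the common leukocyte antigen, averaged 8.88 in LH+BMP6 and 8.18 in control (adjusted p = 0.077). With the low hybridisation signal as a term 2 of 20 rose, and with those arrays left out 9 of 20. CD2 lost its call when any 1 of LH+BMP6 replicates 1, 2 and 3 or any 1 control array was left out, the adjusted p reaching 0.1 without LH+BMP6 replicate 2, and LCP1 without control replicate 1 (adjusted p = 0.057) or LH+BMP6 replicate 2 (adjusted p = 0.072). These markers rose in the same arrays as the cytokines and glycolytic genes above, and their part in those results was not tested.

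Among 12 endothelial markers 1 rose, ENG, and 1 fell, CLDN5, a tight junction protein, with 5.98, 6.91, 6.61 and 6.98 in LH+BMP6, against 7.16, 7.35, 7.89 and 7.86 in control (−0.95 ± 0.27, adjusted p = 0.02), lost without LH+BMP6 replicate 1 (−0.73, adjusted p = 0.071), control replicate 3 (−0.84, adjusted p = 0.059) or control replicate 4 (−0.85, adjusted p = 0.06). The mean over the list was 5.29 to 5.57 in LH+BMP6 and 5.38 to 5.77 in control. SELP, P-selectin of platelets and endothelium and not on that list, was among the 15 largest rises, with 6.63, 7.63, 7.06 and 6.24 in LH+BMP6, against 4.66, 5.01, 4.70 and 4.70 in control (2.13 ± 0.23, adjusted p = 7.1e-06). Pericyte and fibroblast markers gave 4 rises and 2 falls of 13, with a mean level of 8.87 to 9.03 in LH+BMP6 and 8.57 to 9.01 in control. Of 6 red blood cell markers limma called 0, with 0 at an unadjusted p under 0.05.

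Families taken by the prefix of their symbols, a choice made after the files were seen, showed small falls shared by many members. Of 67 cytosolic ribosomal protein genes 56 fell and none rose, nor at an unadjusted p under 0.05, with a median of −0.26 beside −0.02 over all genes. RPL29, of the large subunit, had 12.43, 12.30, 12.45 and 12.53 in LH+BMP6, against 12.99, 12.99, 12.79 and 12.84 in control (−0.47 ± 0.07, adjusted p = 0.00016). Of 67 mitochondrial ribosomal protein genes 36 fell and none rose, nor at an unadjusted p under 0.05, with a median of −0.26, and MRPL57 fell by 0.84 ± 0.10 (adjusted p = 2.7e-05). Of 79 genes of the respiratory chain and ATP synthase 61 fell and 1 rose, with a median of −0.31. NDUFS3, a core subunit of complex I, had 9.06, 8.84, 9.05 and 8.93 in LH+BMP6, against 9.93, 9.82, 9.71 and 9.75 in control (−0.83 ± 0.08, adjusted p = 3.6e-06), and ATP5MC2, of the rotor of ATP synthase, fell by 0.82 ± 0.13 (adjusted p = 0.00025). The exception was NDUFA4L2, a hypoxia-induced relative of a cytochrome oxidase subunit, with 6.57, 8.14, 7.24 and 7.01 in LH+BMP6, against 5.71, 5.74, 6.10 and 6.02 in control (1.35 ± 0.28, adjusted p = 0.0028).

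These falls were of a size that scaling could touch, so they were read under other scalings. The deposited arrays already had close medians, at 6.14 to 6.16 in LH+BMP6 and 6.13 to 6.14 in control. Quantile normalization and median centring could thus change little, and cannot tell a scaling effect from falls of the genes. The medians of the 3 families lay between −0.33 and −0.22 under all alternatives run, quantile normalization and median centring included, and leaving out the arrays of low hybridisation signal gave 39 of 67 cytosolic ribosomal, 19 of 67 mitochondrial ribosomal and 48 of 79 respiratory chain genes lower. Proteasome subunits gave 3 falls of 32 and a median of −0.09, which was −0.05 without those arrays. Cathepsins and lysosomal ATPase subunits rose in 10 of 29 and fell in 1, and rose in 7 without the arrays of low hybridisation signal and in 5 with that signal as a term. CTSK, a collagen-degrading cathepsin, rose by 0.97 ± 0.14 (adjusted p = 0.00016), and CTSC, which activates serine proteases of leukocytes, fell by 0.95 ± 0.18 (adjusted p = 0.0013). Of 163 solute carriers 24 rose and 12 fell. Without the arrays of low hybridisation signal 12 rose and 10 fell, and with that signal as a term 12 rose and 9 fell. SLC16A3 rose most, and SLC1A3, a glutamate transporter, fell by 1.17 ± 0.22 (adjusted p = 0.0011). The members of these families were named after their values were seen.

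Set beside BMP6 alone, the combined treatment gave no probe set that limma called different, 0 of 24016, with 471 at an unadjusted p under 0.05 (1.96%). The difference LH+BMP6 minus BMP6 had a median of 0.06 over the genes called higher against control and of 0.00 over those called lower. Both sets were chosen on the same LH+BMP6 arrays, which favours a difference in the direction of the call. INSL3 had 8.96, 10.12, 7.60 and 6.85 in BMP6, and LH+BMP6 differed from it by 0.50 (95% interval −0.66 to 1.65). CYP17A1 had 4.34, 4.84, 4.89 and 4.26 in BMP6, with a difference of −0.04 (−1.14 to 1.06), and STAR had 5.73, 5.24, 8.18 and 7.72 in BMP6, with a difference of 0.02 (−1.41 to 1.45). The intervals of these 3 genes were wide enough to hold a 2-fold difference, so the data do not show that the treatments acted alike on them. For CYP11A1 the difference was 0.10 (−0.24 to 0.44), for NR5A1 0.08 (−0.13 to 0.29) and for ID1 0.02 (−0.40 to 0.45), which were narrower. STAR was low in the same replicates of both groups, numbers 1 and 2. Of the 24 genes plotted, 3 had an interval that left out 0 before any adjustment: NR4A1 at 0.47 (0.08 to 0.86), FOXO4 at 0.37 (0.02 to 0.73) and SCG2 at 0.34 (0.05 to 0.63). NR4A1 and FOXO4 were named for the size of their rise on these same LH+BMP6 arrays, so their intervals are not those of genes taken blind.

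**Figure D4:**
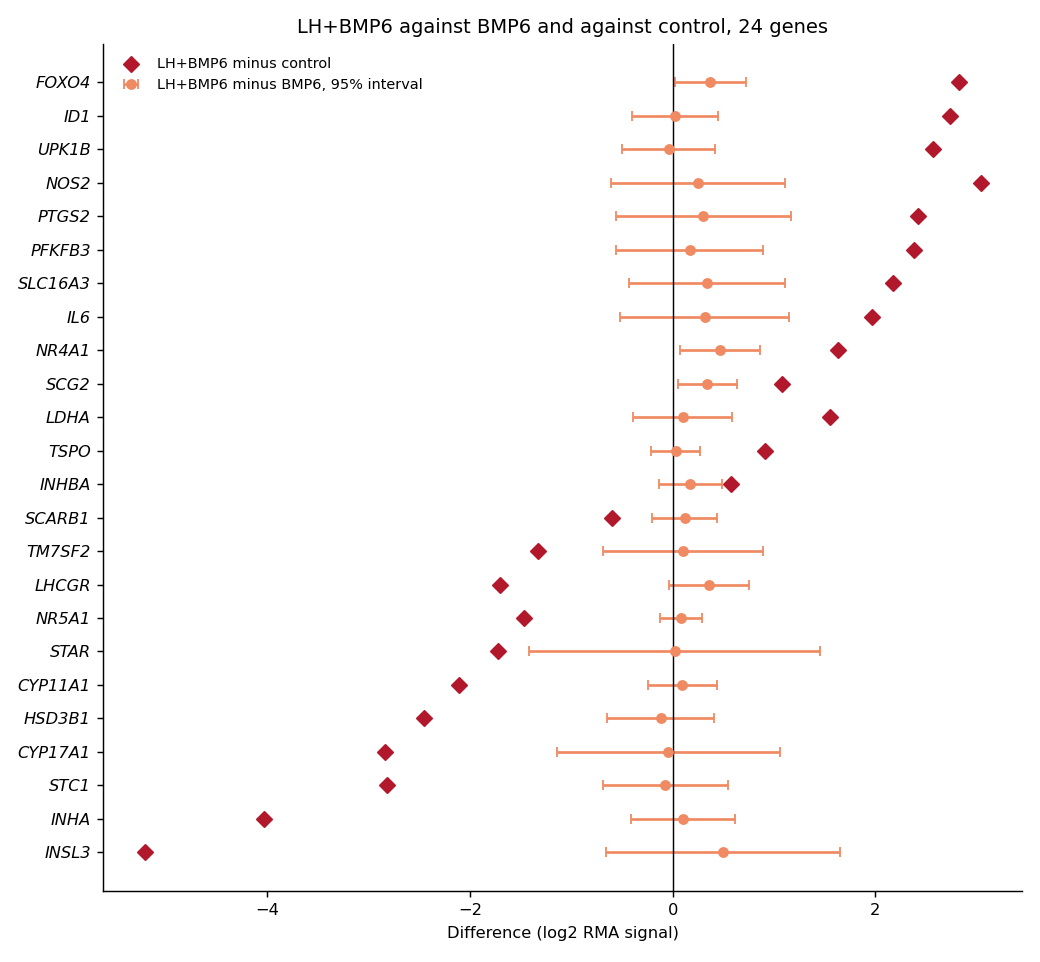
Difference in log2 RMA signal for 24 genes: circles are LH+BMP6 minus BMP6 with limma's unadjusted 95% interval, and diamonds are LH+BMP6 minus control. The diamonds run from −5.20 for INSL3 to 3.04 for NOS2, while the circles lie between −0.12 and 0.50, and 21 of the 24 intervals hold 0.

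Set beside LH alone, the combined treatment gave 4879 called probe sets of 24016 (20.3%), 2399 higher (9.99%) and 2480 lower (10.3%). LH+BMP6 is shared by these comparisons, so their counts are not independent. CYP17A1 and STAR had their highest means in LH. CYP17A1 had 10.85, 7.55, 8.30 and 8.05 in LH, which put LH+BMP6 at −4.15 against LH (adjusted p = 3.4e-05), and STAR had 11.47, 9.49, 9.34 and 9.49 in LH, which put LH+BMP6 at −3.21 (adjusted p = 0.0026). All 16 measured cholesterol genes were called lower in LH+BMP6 than in LH, where 15.5% of all genes were, against 10 of 16 for LH+BMP6 against control, and the median change of the list was −0.84 in BMP6 and 0.61 in LH, each against the same control arrays. None of TM7SF2, LSS, SQLE, CYP51A1 and DHCR7 was called in LH against control (adjusted p of 0.62 to 0.91). LH replicate 1, an array of low hybridisation signal, was the highest LH array for each of them. TM7SF2 had 10.15, 9.26, 7.71 and 7.73 in LH. INSL3 had 14.18, 14.04, 14.06 and 14.02 in LH, as high as in control. Glycolytic genes had a median of 0.68 in LH+BMP6, of 0.57 in BMP6 and of 0.17 in LH against control, and inflammatory genes of 1.12, 0.95 and 0.09.

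The interaction term asked whether the combined change differed from the sum of the changes with LH alone and BMP6 alone. limma called 0 of 24016 probe sets, with 773 at an unadjusted p under 0.05 (3.22%). Of the 2388 genes called in LH+BMP6 against control, 76 had an interaction at an unadjusted p under 0.05, a share close to that over all probe sets. Both shares were below the 0.05 that this threshold gives where there is no interaction, so the counts show no excess. The interactions that follow all have an adjusted p of 0.9995. SCG2, TF, RGN and STC1 were named as candidates for a response to LH, so their unadjusted p values are not those of genes taken blind. SCG2 had 11.44, 10.96, 11.60 and 11.69 in BMP6 and 12.03, 11.71, 11.80 and 11.87 in LH, so that LH+BMP6 cells were level with LH cells, and its interaction was −0.83 ± 0.20 (unadjusted p = 0.00054). TF had 5.71, 6.02, 6.43 and 6.27 in BMP6 and 8.39, 7.74, 7.65 and 8.16 in LH, so that LH+BMP6 cells were level with BMP6 cells, at −1.003 ± 0.24 (unadjusted p = 0.00069). For SCG2, where both factors alone were above control, the sum was not reached; for TF the LH value was not seen once BMP6 was present. RGN, the calcium-binding protein regucalcin, had 4.43, 5.08, 4.70 and 4.94 in LH+BMP6, 4.91, 5.16, 4.75 and 5.22 in BMP6, 10.40, 8.90, 6.70 and 6.83 in LH and 6.02, 5.93, 5.57 and 5.77 in control, with an interaction of −2.61 ± 0.77 (unadjusted p = 0.0035). The LH arrays of RGN were far apart, and this spread enters its test against control, which missed the threshold in the fit of 16 arrays (−1.03 ± 0.54, adjusted p = 0.21) and passed it in that of the 8 arrays compared (adjusted p = 0.00083). STC1 had 8.95, 8.77, 8.43 and 8.74 in BMP6 and 9.79, 9.10, 10.63 and 10.86 in LH, so both factors alone were below control and the combination was no lower than BMP6, with an interaction of 1.30 ± 0.41 (unadjusted p = 0.006). SCARB1 had 9.87, 10.06, 10.07 and 9.84 in BMP6 and 12.05, 11.32, 11.11 and 11.17 in LH, with an interaction of −0.61 ± 0.21 (unadjusted p = 0.012).

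**Figure D5:**
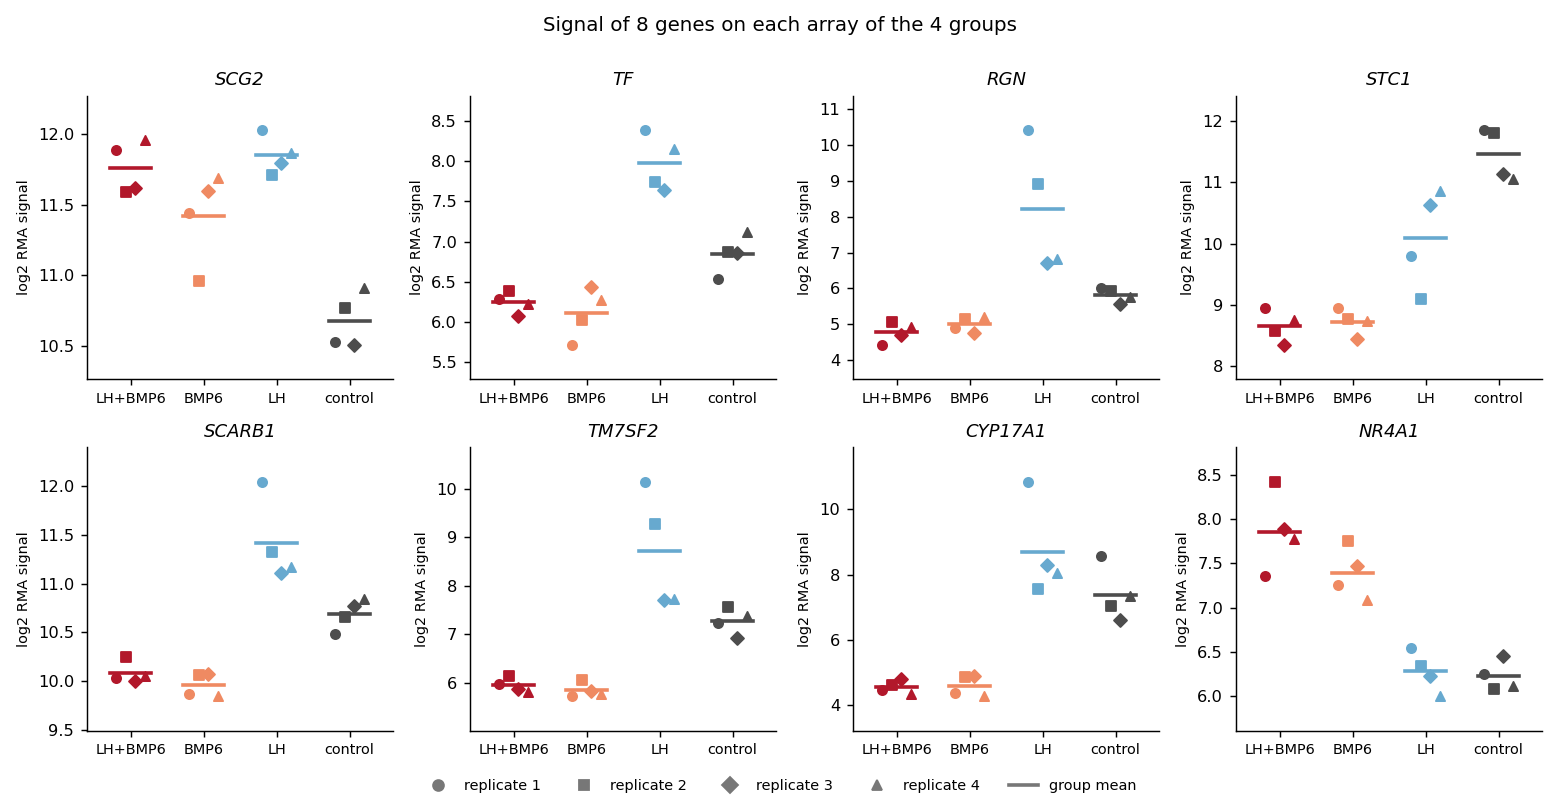
Log2 RMA signal of 8 genes on each array of LH+BMP6, BMP6, LH and control, with a y axis for each gene; each symbol is 1 array and the line is the group mean. SCG2 in LH+BMP6 lies at the level of LH, TF, RGN, SCARB1, TM7SF2 and CYP17A1 in LH+BMP6 lie at the level of BMP6 and below LH, and NR4A1 is highest in LH+BMP6.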

How the data were processed

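The value table holds log2 signals made by the authors with RMA (Affymetrix Expression Console, of a version not stated in the sources used here), per the submitters' processing notes. These deposited values were used unchanged, on the 16 arrays of the 4 labelled groups. Of 24128 probe sets, 112 Affymetrix controls were left out and 24016 tested, with no filter on signal. The platform annotation gave 1 symbol to 13292, several to 86 and none to 10638, and a gene is the brightest of its probe sets (9155 genes, 127 of them known only as LOC loci). Other probe sets of a gene did not always pass. Beside the genes noted above, only 1 of 2 was called for CEBPB, EMID1, CELSR2, PRDX3 and FN1, with none called in the opposite direction. No background level was estimated, so folds that end near the lower quartile or start at the top of the range are lower bounds.

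The test was that of limma 3.58.1 (R 4.3.3): a mean for each group over 16 arrays (12 residual degrees of freedom), eBayes with an intensity trend, and Benjamini-Hochberg adjustment. The median SE of a difference was 0.102, and 0.144 for the interaction. The precision is limited by the number of arrays. Array measures were compared by exact permutation. Figures were drawn with Python 3.11.15 and matplotlib 3.10.9.

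Genes were named by a rule. It took the 15 largest called rises and falls that had the same sign in 4 of 4 replicate numbers. It also took up to 5 called members of each of 30 lists by size, and a fixed set of genes. That set held theca, granulosa and BMP genes and SCG2, TF, RGN and STC1, candidates for a response to LH. Others are said to be named after their values were seen. The comparison, its members and the lists were chosen with earlier results of these data known, and 6 families by symbol prefix after the table was opened. Lists were counted, not tested. Promoters and other sequences were not used here.

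Each group was repeated in 4 experiments per the labels, which do not say that a replicate number marks one. Deviations from the group means of same-numbered LH+BMP6 and control arrays correlated at 0.06, −0.04, 0.09 and −0.04 across probe sets, so no block was used. Those of LH+BMP6 and BMP6 arrays did correlate for some numbers, as given below. The alternatives were a replicate block, other priors, scalings, filters and thresholds, array quality terms, the mean of probe sets, and leaving out arrays.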

Additional observations from a re-analysis of the deposited data

Results flagged for a closer look

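In 9 of 240 groups of 4 arrays, taken over the genes printed with a test, the highest or lowest array stood apart from the other 3 by Dixon's criterion, and chance gives about 1 in 20. Among LH+BMP6 arrays, replicate 2 was high for TSPO (11.11, others 10.75 to 10.81), CEBPB (7.41, others 6.89 to 6.96) and CXCL8 (10.77, others 10.35 to 10.41), and low for PFKM (6.54, others 6.79 to 6.83). Replicate 1 was high for SQLE (9.98, others 9.12 to 9.23). Among control arrays, replicate 1 was low for SFRP2 (6.50, others 7.26 to 7.38), FBLN5 (9.25, others 9.56 to 9.60) and THBS2 (9.29, others 10.42 to 10.57). Replicate 2 was high for SELP (5.01, others 4.66 to 4.70). Control replicate 1 was 1 of the 3 arrays with low hybridisation controls, and the part of that signal in the 3 values was not tested.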

How the results depend on the processing

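LH+BMP6 against control had 4635 called probe sets, 2200 higher and 2435 lower. With the low hybridisation signal as a term these were 2774, 1295 and 1479, without the 3 low arrays 2837, 1370 and 1467, and at an adjusted p under 0.01, a stricter threshold by construction, 2497, 1140 and 1357; the cause of the first was not tested, and the second has fewer arrays. Leaving out 1 array or both of a replicate number gave 2754 (without both numbered 3) to 4262, 1290 to 2065 higher and 1464 to 2323 lower, and at least 2-fold 235 to 378 higher and 202 to 269 lower. Same-numbered LH+BMP6 and control arrays did not correlate in the check above, which does not show that they came from different experiments. Of these 8 arrays, 3 correlated best with their own number. The replicate block gave 5517 called, 2619 higher and 2898 lower, and as a random effect 5267. The block also called FST (adjusted p = 0.0095) and PTX3 (adjusted p = 0.035). Same-numbered LH+BMP6 and BMP6 arrays correlated at 0.51, 0.69, 0.078 and 0.24 (5 of 8 best with their own number), and LH+BMP6 and LH arrays at 0.17, 0.27, 0.086 and 0.26 (7 of 8), a hint from the data that some numbers are shared, which the intervals against BMP6 leave out. With the block, added after the data were seen, LH+BMP6 minus BMP6 was 0.02 (−1.32 to 1.36) for STAR, 0.50 (−0.60 to 1.59) for INSL3 and −0.04 (−1.01 to 0.93) for CYP17A1, and the interactions of SCG2 and TF had unadjusted p of 0.00012 and 0.00096 (adjusted p = 0.994). The actin 3′ minus 5′ covariate gave 3826. LH+BMP6 against BMP6 and the interaction had 0 calls under every alternative run, and LH+BMP6 against LH 3474 to 5706. Of 113 called genes printed with a test, 98 kept the call under all 28 alternatives, 15 lost it under at least 1 and 0 reversed. Of 7 not called, 4 were called under at least 1. The hybridisation signal limits what can be said of calls near the threshold, such as those of cholesterol genes and leukocyte markers.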
